A study of Mus musculus and synthetic RNA with 74 samples.

Results

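The structures described here are predicted folds of a short RNA in which position 15, the adenosine that METTL16 can methylate, lies in a small hairpin loop. They were chosen from the dot bracket string of each fold alone: the string had to hold exactly 1 hairpin loop, and that loop had to have 3 to 5 unpaired nucleotides and to contain position 15. This gave 5755 structures of 36835 listed. The RNA was a chemically synthesized pool of 30 nt molecules with 11 random bases, a constant nonamer at positions 12 to 20 and 10 random bases. The pool was refolded and incubated with recombinant full-length human METTL16 and the methyl donor S-adenosylmethionine in 2 reactions, numbered 11 and 12. A small part of each reaction was kept as input, and the remainder was immunoprecipitated with an antibody against N6-methyladenosine (m6A), which gave 2 input and 2 m6A-IP libraries. All 4 libraries came from RNA that had met the enzyme, and no library from RNA without METTL16 was used here, so an enriched structure is one more abundant in the m6A-IP than in the input of the same RNA pool. Both reactions used the same kind of synthetic pool, so p-values measure only the spread between reactions. The folds are predictions for the unmodified sequence, and a value pools the reads of all molecules given the same string.

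METTL16 is an m6A methyltransferase whose known substrates, the U6 snRNA and a hairpin of the MAT2A mRNA, are structured. MAT2A encodes the enzyme that makes S-adenosylmethionine, and the nonamer of the pool comes from its first hairpin. A hairpin is a stem of paired bases closed by a loop, and the pair next to the loop is the closing pair. A stem can be interrupted by a bulge, with unpaired bases on 1 side, or by an interior loop, with unpaired bases on both sides.

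In the constant nonamer, written with the methylated adenosine in capitals, there is little freedom for small loops around position 15.
nonamer: uacAgagaa
Of 12 placements of the closing pair that fit the rule, 7 join bases that can pair (Watson-Crick or G-U), and 5 of these had structures in the table. They are shown by the fold with the highest mean input value of each placement, since the placement sets the loop letters of all its structures. The loop is in capitals, n is a random base, and u outside the nonamer is a position that must be U because it pairs with an A of the nonamer. The random positions paired with G can hold C or U.
N10-G16, fold .......(((.....)))............: nnnnnnnnunNUACAgagaannnnnnnnnn
N11-G16, fold ........(((....)))............: nnnnnnnnnunUACAgagaannnnnnnnnn
U12-G16, fold ........((((...))))...........: nnnnnnnnunuuACAgagaannnnnnnnnn
U12-A17, fold .....(((..((....))..))).......: nnnnnnnnnnnuACAGagaannnnnnnnnn
U12-G18, fold ........((((.....)))).........: nnnnnnnnnuuuACAGAgaannnnnnnnnn
Position 15 is the last base of the loop in the first 3 placements, with G16 as the 3' base of the closing pair, and the third base of the loop in the last pair of placements. U12-A17 held 2784 structures, N10-G16 951, U12-G16 856, U12-G18 626 and N11-G16 538. No structure closed its loop by N11-A17 or C14-G18, although these bases can pair.

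The values of the table are reads divided by a size factor of the library, and 1 read was worth 0.519, 0.585 and 0.459 in the input of reactions 11 and 12 and the m6A-IP of reaction 11, and 6.93 in the m6A-IP of reaction 12. The table held 20454163, 18106811 and 22118622 reads in the first 3 of these libraries and 1154715 in the last. The small loop structures took 7.14% (95% Wilson interval 7.13 to 7.15) and 7.21% (7.20 to 7.22) of the input reads, and 5.99% (5.98 to 6.00) and 6.01% (5.96 to 6.05) of the m6A-IP reads of reactions 11 and 12. These intervals cover counting error only. The share was thus lower in both m6A-IP libraries than in either input library, by more than counting error. The median small loop structure had 92, 83, 79 and 4 reads in the 4 libraries, and 219 had none in the last, so single structures are coarse there.

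Structures with position 15 in a small hairpin loop were mostly depleted or unchanged in the m6A-IP libraries. Enrichment of each structure was tested by limma's moderated test on log2 of the value plus 5, 2 m6A-IP against 2 input libraries, over all 36835 structures. A structure was called when its p, adjusted by Benjamini-Hochberg, was at most 0.1. Of the 5755 small loop structures 242 (4.21%) were enriched, against 12.5% of all structures, and 2126 (36.9%) were depleted, against 27.2% of all structures. The median log2 fold change was -0.54 (quartiles -1.01 and -0.06), against -0.27 over all structures. Taken in each reaction alone, the median was -0.38 in reaction 11 and -0.68 in reaction 12. Both m6A-IP values lay above both input values in 720 structures (12.5%, against 25.3% of all), and below both in 3556 (61.8%, against 47.3% of all). The size factors set the zero of this scale: with the library totals of the table in their place the median of all structures moved from -0.27 to -0.05 and that of the small loops to -0.33, so a value is best read against all structures. The count of enriched small loop structures then became 538 (9.35%), with 22.5% of all structures enriched. Leaving out a library changed the counts of these and of all structures together. Enriched small loops numbered 23 (0.40%, with 2.36% of all enriched) and 19 (0.33%, with 2.32%) without the input of reaction 11 or 12, and 722 (12.5%, with 22.9%) and 866 (15.05%, with 30.4%) without the m6A-IP of reaction 11 or 12. The matching counts of depleted small loops were 419 (7.28%, with 5.71% of all depleted), 383 (6.66%, with 5.41%), 3873 (67.3%, with 56.0%) and 3201 (55.6%, with 41.1%). Among the 2389 small loops with a mean value of at least 50, 137 (5.73%, with 15.5% of all such structures) were enriched and 1254 (52.5%, with 37.9%) depleted. In each of these settings the small loops had the lower share of enriched and the higher share of depleted structures.

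The 5 placements of the closing pair differed, and the order was the same in both reactions. For each placement the values of its structures were summed in each library, and the log2 ratio of m6A-IP over input was taken within a reaction. The tetraloop ACAG closed by U12-A17, in which position 15 is not last and G16 stays unpaired, had the highest ratio, -0.16 in reaction 11 and -0.52 in reaction 12 (mean -0.34 ± 0.26 SD, n = 2 reactions). Its median structure was at -0.36, with 183 structures (6.57%) enriched and 774 (27.8%) depleted. Of all structures 12.5% were enriched and 27.2% depleted, so its depleted share was near that of all and its enriched share was lower. The pentaloop NUACA closed by N10-G16 followed, at -0.31 and -0.64 (-0.48 ± 0.24), with 42 (4.42%) enriched and 327 (34.4%) depleted. The triloop ACA closed by U12-G16 was at -0.46 and -0.82 (-0.64 ± 0.26), with 8 (0.93%) enriched and 368 (43.0%) depleted. The tetraloop UACA closed by N11-G16 was close to it, at -0.49 and -0.84 (-0.66 ± 0.24), with 8 enriched and 269 depleted. The pentaloop ACAGA closed by U12-G18 was the lowest, at -0.995 and -1.28 (-1.14 ± 0.20), with 1 (0.16%) enriched and 388 (62.0%) depleted. Its median structure was at -1.05. In every placement the ratio was lower in reaction 12 than in reaction 11, so placements were also compared as ratios within a library, which the size factors do not touch.

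10 pairs of classes were compared in this way, as the log2 ratio of their summed values in a library, m6A-IP against input, with a two-sided exact permutation test over the 4 libraries. With 2 against 2 libraries the smallest p this test can give is 0.333, so it cannot reach 0.05, and the smallest p adjusted over the 10 comparisons is 0.370. In 8 of the 10 comparisons the mean difference was larger than its SD between reactions, and in 9 it had the same sign in both.

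Loops of the same size differed by closing pair. Within a size the closing pair sets the place of position 15, the loop letters and whether G16 is paired, so these cannot be told apart. Among loops of 4, U12-A17 exceeded N11-G16 by 0.33 in reaction 11 and 0.32 in reaction 12 (mean 0.33 ± 0.012 SD, n = 2). Among loops of 5 the order was the other way round, and U12-G18, with position 15 in the middle, was below N10-G16, with position 15 last, by a difference of -0.69 and -0.64 (-0.66 ± 0.035). Over all sizes, structures with position 15 last were lower than those with it earlier by a difference of -0.12 ± 0.0057 (SD, n = 2), in which the high U12-A17 and the low U12-G18 are summed together. Stem length is not the same in these classes, and when structures with the same number of base pairs were compared the 3 differences became 0.59, -0.30 and -0.23. Among the few structures with an uninterrupted stem the first and the last turned to -0.57 (7 structures against 6) and 0.87 (19 against 13), and the second was -1.06.

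By size, the loops of 4 were above both the loops of 3 and the loops of 5. The log2 ratio of summed values was -0.46 and -0.82 in reactions 11 and 12 for the 856 structures with a loop of 3, -0.21 and -0.57 for the 3322 with a loop of 4, and -0.48 and -0.80 for the 1577 with a loop of 5. Loops of 4 exceeded loops of 3 by 0.25 ± 0.0029 and loops of 5 by 0.25 ± 0.024 (SD, n = 2). Loops of 3 and 5 differed by 0.0016 ± 0.026, less than the spread between reactions, and by 0.27 at the same number of base pairs. Of the 3322 loops of 4, 2784 are closed by U12-A17, and the loops of 4 closed by N11-G16, at -0.66 in the mean, were close to the loops of 3, at -0.64. On uninterrupted stems loops of 4 were lower, by a difference of -0.29 from loops of 3 and -0.11 from loops of 5. Just outside the size limit, the 3592 single loops of 6 nucleotides with position 15 had a median of -0.49, against -0.70 for loops of 5, and ratios of -0.37 and -0.68 against -0.48 and -0.80.

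From 5 base pairs on, small loop structures with more base pairs had lower medians. The median log2 fold change was -0.16 in the 4 structures with 3 base pairs, 0.10 in the 62 with 4 and 0.12 in the 299 with 5. It was lower with each further pair, at -0.13 with 6 (783 structures), -0.37 with 7 (1400), -0.63 with 8 (1646), -0.89 with 9 (1166), -1.09 with 10 (378) and -1.29 with 11 (17). 15 of 62 structures with 4 pairs (24.2%) and 60 of 299 with 5 pairs (20.1%) were enriched, against 12.5% of all structures. With 9 pairs 3 of 1166 (0.26%) were enriched. By limma 0 of the 395 with 10 or 11 pairs were enriched, and 0 were higher at an unadjusted p under 0.05. Depleted structures went the other way, from 26 of 299 (8.70%) with 5 pairs to 618 of 1166 (53.0%) with 9. With 10 pairs 245 of 378 (64.8%) were depleted, against 27.2% of all structures. Summed over structures, those with 9 or more pairs were lower than those with 6 or fewer by a difference of -0.76 in reaction 11 and -0.73 in reaction 12 (-0.75 ± 0.019). As a description, Spearman's rho between base pairs and log2 fold change was -0.47 over the 5755 structures, which share their libraries and differ in depth, the median of the mean value going from 152 with 4 pairs to 27.4 with 10.

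At a given number of base pairs the medians of the closing pairs still differed. U12-A17 had the highest median of the 5 placements at each number from 4 to 9, at 0.73, 0.41, 0.21, -0.11, -0.41 and -0.71. Only 15 of its structures had 4 pairs. U12-G18 had the lowest at 4, 7 and 8 pairs, at -0.38, -0.93 and -1.08, of which the first rests on 2 structures, while N11-G16 was lowest at 5, 6 and 9, at -0.24, -0.57 and -1.31. The enriched structures of U12-A17 were spread over stems of 4 to 9 pairs. The largest count was 65 of 303 structures (21.5%) at 6 pairs. At 7 pairs 51 of 638 (7.99%) were enriched, below the 12.5% of all structures. The 42 of N10-G16 had 4 to 7 pairs, with 2 of 293 structures (0.68%) at 7.

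Over all stem lengths, structures with more pairs stacked directly on the loop, before the first interruption, had lower medians. The median log2 fold change was -0.23 in the 243 structures with 1 pair on the loop, -0.42 in 2476 with 2, -0.51 in 1950 with 3, -0.76 in 694 with 4, -1.15 in 253 with 5 and -1.35 in 106 with 6. At the same number of base pairs this order did not hold for the shortest helices. With 7 pairs the medians were -0.41, -0.27 and -0.23 for 1, 2 and 3 pairs on the loop and -0.74 for 4, and with 8 pairs they were -0.84, -0.53, -0.55 and -0.88. Within placements the order did not hold throughout either. For 2 to 5 pairs on the loop the medians were -0.99, -0.60, -0.60 and -0.63 in U12-G16, and -0.31, -0.29, -0.57 and -1.18 in U12-A17. Among the 1086 structures with 4 or more pairs stacked on the loop 1 was enriched and 624 were depleted. For the 694 with exactly 4 the shares were 0.14% and 48.0%, against 12.5% and 27.2% of all structures. Of the 42 enriched N10-G16 structures 30 had 1 pair on the loop. They were 13.5% of the 223 structures of this placement with 1 such pair, near the 12.5% of all structures. Of these 223, 50 (22.4%) were depleted, against 27.2% of all structures.

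At the same number of base pairs, stems with more interruptions had higher values. With 7 pairs the median log2 fold change was -1.73 in the 5 structures with an uninterrupted stem, -0.82 in 415 with 1 bulge or interior loop, -0.19 in 903 with 2 and 0.50 in 77 with 3. By limma 0 of the 415 with 1 interruption were enriched (1 was higher at an unadjusted p under 0.05), against 25 of the 77 with 3. With 9 pairs the medians were -2.21, -1.37, -0.82 and -0.08. Over all stem lengths 54 of 430 structures with 3 interruptions (12.6%) were enriched, near the 12.5% of all structures. Of these 430, 5 (1.16%) were depleted, against 27.2% of all structures. With 1 interruption 38 of 1766 (2.15%) were enriched and 1101 (62.3%) depleted. Of the 54 enriched, 50 were U12-A17 structures, which made up 366 of the 430. The ratio of summed values for stems with 3 interruptions was 0.37 and 0.18 in the 2 reactions, above 0 in both, and their difference from stems with 1 was 0.79 and 0.98 (0.88 ± 0.13 SD, n = 2). The interruption nearest to the loop was an interior loop in 4576 structures, with a median of -0.49, a bulge on the 3' side in 796, with -0.76, and a bulge on the 5' side in 351, with -0.74. Of all 242 enriched structures 204 had 2 or more interruptions and 162 had 6 or fewer pairs. With 2 interruptions 150 of 3527 structures (4.25%) were enriched, below the 12.5% of all structures.

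The 32 structures with an uninterrupted stem form a ladder of lengths for each closing pair, since the table held at most 1 of each length. They were picked out after their values had been seen. By limma 0 were enriched, with 0 higher at an unadjusted p under 0.05, and 23 (71.9%) were depleted. All structures had 12.5% enriched and 27.2% depleted. The U12-A17 series grows outward from the same ACAG loop and is shown at its shortest and at a long stem.
4 base pairs, fold ........((((....))))..........: nnnnnnnnuunuACAGagaannnnnnnnnn
8 base pairs, fold ....((((((((....))))))))......: nnnnnnnnuunuACAGagaannnnnnnnnn
Both folds fix the same letters, and they differ in whether the random bases beyond position 20 find partners. The fold with 4 pairs had values of 1597 and 1614 in the input of reactions 11 and 12 and 1792 and 1490 in the m6A-IP, so the groups overlapped. The fold with 8 pairs had 383 and 377 in the input and 92.3 and 90.1 in the m6A-IP, a log2 fold change of -2.0 (SE 0.15, limma adjusted p 0.014). The steps between were also ordered, with log2 fold changes of 0.03, -0.94, -1.37, -1.73 and -2.0 for 4 to 8 pairs. The stems of 9 and 10 pairs, at -2.68 and -2.35, had 1 and 0 reads in m6A-IP 12 and are less certain.

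The U12-G18 series began lower, since its stem of 4 pairs was already depleted, and went from -0.99 at 4 pairs through -1.18, -1.58 and -1.91 to -2.17 at 8, with -3.15 at 9, a fold with 0 reads in m6A-IP 12. The loops closed by G16 lay between -0.50 and 0.35 up to 5 pairs and between -0.49 and -2.11 from 6. N10-G16 was at -0.10, -0.39 and 0.35 with 3, 4 and 5 pairs, none of them called, then at -0.49, -1.20 and -1.58 with 6, 7 and 8, and higher again with 9, at -0.92 (depleted, limma adjusted p 0.099). U12-G16 was at -0.15 and 0.13 with 4 and 5 pairs, neither called, then at -0.75, -1.34, -1.70 and -1.73 with 6 to 9. N11-G16 was at -0.31, -0.50 and -0.26 with 3, 4 and 5 pairs, of which the stem of 4 was depleted, then at -1.06, -1.78 and -2.11. The uninterrupted fold with the highest log2 fold change, 5 pairs closed by N10-G16, had 984 and 945 in the input and 1322 and 1151 in the m6A-IP. Its groups did not overlap, and its limma adjusted p was 0.14.

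The nonamer itself supplies the 3' strand of these stems, so more of its positions were paired in longer stems. The median log2 fold change was 0.46 in the 19 structures with 1 paired nonamer position, -0.06 in 183 with 2, -0.44 in 2012 with 3, -0.59 in 2628 with 4, -0.76 in 851 with 5 and -0.79 in 62 with 6. Those with 1 were all of N10-G16 and those with 6 all of U12-G16. Within each placement the medians were also lower with more paired positions, in U12-A17 at -0.29, -0.31 and -0.76 with 3, 4 and 5. Among structures with 5 base pairs there was no decline, at 0.15, 0.15, 0.0013, 0.24 and 0.19 for 1 to 5 paired positions. With 9 base pairs the medians were -0.82, -0.88, -0.95 and -1.08 for 3 to 6. Summed, structures with 5 or more paired positions were lower than those with 3 or fewer, by a difference of -0.34 in reaction 11 and -0.39 in reaction 12 (-0.36 ± 0.032 SD, n = 2), and of -0.28 at the same number of base pairs.

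Which positions were paired differed as well as how many. In U12-A17 structures, pairing of all of positions 17 to 20 went with a median of -0.76 (380 structures, 9 enriched and 180 depleted). The other 3 patterns had medians of -0.29 to -0.33. Of these, 98 of 1126 structures were enriched when only A17 and G18 were paired, 50 of 722 when A19 was paired as well, and 26 of 556 when A20 was paired and A19 was not. More were depleted in each, at 282, 178 and 134. As shares of each pattern these were slightly below the 27.2% depleted of all structures. The enriched shares were also below the 12.5% of all structures. In N10-G16 structures the 3 highest medians belonged to patterns in which G16 was paired and A17 was not. These patterns were picked out by their values. The medians were 0.46 with G16 alone paired (19 structures, 7 enriched and 0 depleted), 0.74 with G16 and A20 (18 structures, 9 and 0) and 0.49 with G16 and G18 (32 structures, 10 and 0). In these 69 structures 0 were lower by limma at an unadjusted p under 0.05 as well. The other 5 patterns with G16 paired and A17 unpaired had medians below 0. They ran from -0.69 (38 structures, 17 depleted) to -0.19 (30 structures, 3 enriched and 5 depleted). The highest of these, and the pattern with G16 and A19 paired, at -0.23 (5 structures), lay above the median of all structures, -0.27. Of the 30 structures 16.7% were depleted, below the 27.2% of all structures. With all of positions 16 to 20 paired the median was -0.86, with 0 of 75 structures enriched by limma (0 higher at an unadjusted p under 0.05) and 40 depleted.

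The structures with the largest changes were examined singly, among the 1223 with a mean value of at least 100. Of these 59 were enriched and 637 depleted. Calls were more frequent at high values, with 15.5% enriched and 37.9% depleted in the fit of all structures with a mean of at least 50. The 5 highest log2 fold changes were shared by the N10-G16 and U12-A17 placements, and are printed because each shows the short, broken stem described above.
N10-G16, fold ...((..(.(.....).)..))........: nnnnnnnnnnNUACAgagaannnnnnnnnn
N10-G16, fold ...(((...(.....)...)))........: nnnnnunnnnNUACAgagaannnnnnnnnn
N10-G16, fold ....((..((.....).)..))........: nnnnnnnnnnNUACAgagaannnnnnnnnn
U12-A17, fold ..(.(((...((....))...))).)....: nnnnnnnnnnnuACAGagaannnnnnnnnn
U12-A17, fold .......(((((....)))..)).......: nnnnnnnnnunuACAGagaannnnnnnnnn
The first had 78.3 and 73.7 in the input of reactions 11 and 12 and 237 and 166 in the m6A-IP (24 reads in the last), a log2 fold change of 1.33 (SE 0.22, limma adjusted p 0.017). The second, a single closing pair set off from a stem of 3 by a symmetric interior loop, had 163 and 140 in the input and 439 and 340 in the m6A-IP, a log2 fold change of 1.32 (SE 0.19, limma adjusted p 0.015). The third had 70.5 and 70.7 in the input and 186 and 152 in the m6A-IP, at 1.20 (SE 0.18, limma adjusted p 0.016). In all 3 the closing pair stood alone next to the loop.

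The 2 U12-A17 folds kept 2 or 3 pairs on the loop. The fold with 6 pairs and 2 interruptions had 115 and 119 in the input and 254 and 243 in the m6A-IP, a log2 fold change of 1.06 (SE 0.16, limma adjusted p 0.015). The fold with a bulge on the 3' side had 87.7 and 91.2 in the input and 219 and 159 in the m6A-IP, at 1.02 (SE 0.21, limma adjusted p 0.025). In these 5 folds every m6A-IP value was above every input value, which the choice of the highest folds favours. With either input library left out, the last 2 missed the threshold.

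The highest folds of the other placements were less enriched. In N11-G16 the fold ....((...((....))...))........ had 73.7 and 69.0 in the input and 107 and 159 in the m6A-IP, a log2 fold change of 0.83 (SE 0.23, limma adjusted p 0.0499). In U12-G16 the fold ....((...(((...)))...))....... had 199 and 209 in the input and 328 and 305 in the m6A-IP, at 0.62 (SE 0.15, limma adjusted p 0.037). In both folds 2 outer base pairs were set off from the helix on the loop by an interior loop of 3 bases on each side, and both missed the threshold with either input library left out. In U12-G18 the highest was ......((.(((.....))).))......., with 285 and 272 in the input and 339 and 270 in the m6A-IP. Its groups overlapped, and it was not called (log2 fold change 0.12, SE 0.18, limma adjusted p 0.64).

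The lowest values belonged to folds with 7 to 9 base pairs. They are printed for comparison with the short stems of the enriched folds.
U12-A17, fold ...((((.((((....)))).)))).....: nnnnnnnnuunuACAGagaannnnnnnnnn
U12-A17, fold ...(((((((((....)).)))))))....: nnnnnnnnnunuACAGagaannnnnnnnnn
U12-G18, fold ....((((((((.....)))))))).....: nnnnnnnnnuuuACAGAgaannnnnnnnnn
N11-G16, fold ....(((((((....))).)))).......: nnnnnnnununUACAgagaannnnnnnnnn
U12-A17, fold ..(((((((.((....))...)))))))..: nnnnnnnnnnnuACAGagaannnnnnnnnn
The first had 295 and 300 in the input and 131 and 20.8 in the m6A-IP, where the last value is 3 reads, a log2 fold change of -2.35 (SE 0.72, limma adjusted p 0.060). The second had 201 and 184 in the input and 63.4 and 20.8 in the m6A-IP, at -2.23 (SE 0.45, limma adjusted p 0.024). The third, the uninterrupted U12-G18 stem of 8 pairs, had 365 and 392 in the input and 92.3 and 69.3 in the m6A-IP, at -2.17 (SE 0.19, limma adjusted p 0.014). These folds were low in both m6A-IP libraries, and the library of reaction 12 was the lower.

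The fourth had 225 and 216 in the input and 77.6 and 27.7 in the m6A-IP, a log2 fold change of -2.12 (SE 0.42, limma adjusted p 0.024). The fifth had 159 and 194 in the input and 64.3 and 20.8 in the m6A-IP, at -2.10 (SE 0.46, limma adjusted p 0.029). In U12-G16 the lowest fold, .((((((..(((...)))..))))))...., had 263 and 285 in the input and 101 and 48.5 in the m6A-IP, at -1.89 (SE 0.33, limma adjusted p 0.019). In N10-G16 it was .((((((.((.....))))))))......., with 241 and 257 in the input and 66.6 and 62.4 in the m6A-IP, at -1.87 (SE 0.17, limma adjusted p 0.014). In each of these 7 folds both m6A-IP values were below both input values.

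The most abundant folds of the placements, printed at the start, were closer to the middle. The N10-G16 fold with 3 pairs had 21548 and 21336 in the input and 22047 and 18076 in the m6A-IP (log2 fold change -0.10, SE 0.21, limma adjusted p 0.73). The U12-A17 fold had 8366 and 8274 in the input and 8476 and 6605 in the m6A-IP (-0.15, SE 0.20, limma adjusted p 0.58), and the U12-G16 fold had 5938 and 5843 in the input and 6237 and 4526 in the m6A-IP (-0.15, SE 0.21, limma adjusted p 0.61). In these 3 the m6A-IP values lay on both sides of the input values.

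The N11-G16 fold had 12365 and 12611 in the input and 11172 and 9045 in the m6A-IP (log2 fold change -0.31, SE 0.20, limma adjusted p 0.27), below the input in both reactions but not called. The U12-G18 fold was the only one of the 5 that was called, with 6670 and 6801 in the input and 3930 and 2911 in the m6A-IP (log2 fold change -0.99, SE 0.20, limma adjusted p 0.025). With either input library left out it missed the threshold as well.

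Compared with other single hairpins by summed values, small loops around position 15 were close to larger loops around it and below small loops elsewhere. The 17746 structures with position 15 in a single loop of 6 or more had ratios of -0.34 and -0.67 in reactions 11 and 12, against -0.32 and -0.67 for the small loops, a difference of 0.016 ± 0.017 (SD, n = 2) that did not exceed the spread between reactions. At the same number of base pairs the small loops were higher by 0.20. Structure by structure, without matching on base pairs, the small loops were lower, with a median of -0.54 against -0.43 in the larger loops. The larger loops had 8.46% enriched and 34.6% depleted structures, against 4.21% and 36.9% in the small loops. The 6986 structures whose only loop was small but did not contain position 15 had ratios of 0.15 and -0.21, and the small loops with position 15 were lower by a difference of -0.46 ± 0.0016, or -0.34 at the same number of base pairs. Their structures were enriched in 15.2% and depleted in 19.7%. Where position 15 was a bulge of 1 nucleotide, in 269 structures, the ratios were 1.49 and 1.15.

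The change with stem length was seen in these classes too. Structures with 9 or more pairs were lower than those with 6 or fewer, by a difference of -0.81 ± 0.027 in the larger loops and -0.62 ± 0.016 in the small loops elsewhere, against -0.75 ± 0.019 in the small loops with position 15 (SD, n = 2). Stems with 3 interruptions exceeded those with 1 by 1.15 ± 0.17 and 0.60 ± 0.21, against 0.88 ± 0.13. Spearman's rho between base pairs and log2 fold change was -0.47 over the larger loops and -0.33 over the small loops elsewhere, as a description over structures of the same libraries.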

How the data were processed

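Reads with the correct nonamer and full length were kept by the authors after adaptor removal with cutadapt 1.9.1, each RNA was folded with RNAfold (version not given in the sources used here), and reads were counted per dot bracket string. The signal the authors deposited is this count, divided by the authors with a size factor of the library from DESeq2 1.18.1. Every value was a whole multiple of the value of 1 read within 0.01, which gave the depths; the lowest mean listed is 16.8, by a filter not given in the sources used here. The table also holds the authors' own DESeq2 comparison (mean, log2 fold change, its error, statistic and p-values), which was not used, nor were the embryo tables.

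Here structures were parsed with Python 3.11.15 and pandas 2.3.3, and 2 m6A-IP and 2 input libraries were compared in R 4.3.3 by limma 3.58.1 after log2(value + 5), with a mean-variance trend, Benjamini-Hochberg adjustment and a threshold of 0.1. This scale understates changes of low values. No count model was run. The limma fit was also run on simulated data. It called 58 of 100 structures changed by 1 in log2, 94 of 100 changed by 2 and 0 of 36635 left unchanged. The changed structures had a mean input value of at least 50, whereas the median small loop structure had a mean value of 40.5. Input and m6A-IP libraries of the same number were paired by origin, since both were taken from 1 reaction by the study's methods, although their deviations from the group means correlated at only 0.015 over structures. Classes were compared over libraries by exact permutation with scipy 1.17.1. Values matched on base pairs are means over numbers of pairs with at least 10 structures in each class. The named structures are, for each closing pair, the one with the highest mean input value and, among those with a mean of at least 100, the largest and smallest log2 fold change, plus the 5 largest and 5 smallest overall. Structures, classes and rules were chosen with earlier results of these data known. Alternatives were library totals, other pseudocounts, a replicate block, a minimum mean value, left out libraries, reactions or abundant structures, uninterrupted stems and matched numbers of pairs.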

Additional observations from a re-analysis of the deposited data

How the results depend on the processing

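The 4 libraries differ in depth, and the m6A-IP library of reaction 12 limits single structures, since 1 read there is worth 6.93. With pseudocounts of 1 and 20 the median of the small loops was -0.60 and -0.40, against -0.29 and -0.20 over all structures. Then 236 and 257 small loops were enriched, with 12.1% and 13.1% of all structures. Depleted were 1928 and 2316, with 25.2% and 29.5% of all. The cause was not tested for any value here or below that moved. With library totals 538 small loops were enriched, their median was -0.33 and U12-G18 was at -0.91. With a mean of at least 50, 137 of 2389 were enriched and 1254 depleted. Leaving out each library in turn, where the lone library of a group is assumed to vary like the other group, gave 19 to 866 enriched and 383 to 3873 depleted (without the input of reaction 12, the m6A-IP of reaction 12, the input of reaction 12 and the m6A-IP of reaction 11).

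With the reaction number as a replicate block 215 small loops were enriched and 2283 depleted, with 11.6% and 29.5% of all structures, and no named structure changed its call.

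Without the most abundant structure of each class the differences were 0.41 for U12-A17 against N11-G16, -0.62 for U12-G18 against N10-G16, 0.29 and 0.32 for loops of 4 against 3 and 5, 0.029 for 3 against 5, -0.15 for position 15 last, -0.40 for paired nonamer positions and -0.47 against small loops elsewhere. On uninterrupted stems, in the same order, they were -0.57, -1.06, -0.29, -0.11, 0.18, 0.87, -0.41 and -0.46, and -2.18 for long against short stems and 0.18 against larger loops. At the same number of base pairs they were 0.59, -0.30, 0.18, 0.46, 0.27, -0.23, -0.28 and -0.34, and 0.20 against larger loops. Leaving out a reaction kept the sign of all differences but loops of 3 against 5, at -0.017 to 0.020.

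Of the named folds, .....(((..((....))..)))....... of U12-A17 turned to 0.080 with library totals and ranged from -0.33 to 0.027 with 1 library left out, ........((((...))))........... of U12-G16 turned to 0.084 and ranged from -0.38 to 0.083, and .......(((.....)))............ of N10-G16 turned to 0.13 and ranged from -0.25 to 0.040. The fold ......((.(((.....))).))....... of U12-G18 ranged from -0.044 to 0.28. The edgeR and DESeq2 fits planned on recovered reads were not run.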
